A study of Drosophila melanogaster with 3 samples.

Results

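Intergenic peaks away from promoters are chromatin sites of the CG33213-eGFP fusion protein that lay in no annotated transcript and more than 500 bp from every transcription start site (TSS). There were 462 of them among the 4417 peaks of the optimal list on the dm6 assembly, or 10.5% (exact binomial 95% interval 9.57 to 11.4%, which covers counting over peaks, not replicates). A peak was placed by its summit, the base at which the authors' peak caller put its maximum, against the Ensembl BDGP6.54 annotation without transposable elements. Of the other optimal peaks, 2857 had a summit within 500 bp of a TSS (promoter peaks) and 1098 lay inside a transcript (transcript peaks). The gene for CG33213 is listed as Boh1 in that annotation. All samples were whole Drosophila melanogaster embryos of both sexes, pooled, aged 0 to 24 h, from a transgenic line with GFP fused to the C terminus of CG33213. Chromatin immunoprecipitation and sequencing (ChIP-seq) used an anti-GFP antibody, per the sample descriptions, although CG33213 stands in the labels' antibody field. The labels give 3 biological replicates of this 1 group and a sonicated size range of 200 to 800, so no condition could be compared with another. The labels name a possible control experiment, which is not analysed here.

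Intergenic sequence in flies holds enhancers, silencers and boundary elements as well as repeats, and an occupied site there can lie far from the gene it acts on. Sequence between divergently transcribed genes borders the 5′ ends of both, sequence between convergent genes borders their 3′ ends, and tandem genes present one end of each kind. CTCF is a zinc finger protein that binds boundary (insulator) elements in flies, such as those between the regulatory domains of the Bithorax complex, and GGCGC is part of the sequence it is known to prefer.

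Windows of 101 bases centred on the summit are printed on the forward strand of dm6, and each is named by its flanking genes and its rank by signal in the optimal list. The windows in the set below hold the CTCF core AGNNGGCGC (N is any base), the word that set intergenic summits apart most from sequence near them. Capitals mark the core, which starts with GCGCC where it lies on the reverse strand, or the related word AGGTGTCGC (reverse strand GCGACACCT). Several windows hold more than one match, and the set was chosen after the values were seen, partly for this. Most of the 34 members with the core hold only a single match to it.
jp / lncRNA:CR44149, rank 58, chr2L:9567465-9567565: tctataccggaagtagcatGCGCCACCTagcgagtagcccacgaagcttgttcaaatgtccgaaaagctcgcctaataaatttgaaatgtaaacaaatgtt
soti / cv-c, rank 170, chr3R:14391369-14391469: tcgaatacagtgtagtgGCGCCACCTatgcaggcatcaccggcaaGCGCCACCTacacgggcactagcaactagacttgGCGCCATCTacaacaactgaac
Sox21a / Sox21b, rank 677, chr3L:14111575-14111675: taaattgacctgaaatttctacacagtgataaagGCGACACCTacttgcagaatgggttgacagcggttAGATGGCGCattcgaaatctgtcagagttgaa
CHES-1-like / CG15478, rank 1110, chrX:7710931-7711031: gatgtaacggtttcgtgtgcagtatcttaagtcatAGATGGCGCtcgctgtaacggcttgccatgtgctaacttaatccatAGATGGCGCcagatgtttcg
CadN / CadN2, rank 1437, chr2L:17784785-17784885: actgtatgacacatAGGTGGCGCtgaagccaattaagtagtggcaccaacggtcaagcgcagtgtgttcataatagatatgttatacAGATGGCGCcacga
wgn / Rip11, rank 1897, chrX:18635426-18635526: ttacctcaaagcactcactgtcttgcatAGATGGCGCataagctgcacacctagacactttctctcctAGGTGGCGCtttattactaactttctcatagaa
NLaz / CG14346, rank 2193, chr2L:1362385-1362485: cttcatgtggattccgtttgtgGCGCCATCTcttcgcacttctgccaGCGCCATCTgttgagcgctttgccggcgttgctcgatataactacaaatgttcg

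Further windows lacked the core and held the words AGGTGTCGC or AGATGTCGC, in capitals, which resemble matches of the core. They are 3 of the 10 members of that kind, chosen for their named neighbours after the values were seen, and stronger ones are named with the counts of these words.
vn / CG5568, rank 375, chr3L:5869759-5869859: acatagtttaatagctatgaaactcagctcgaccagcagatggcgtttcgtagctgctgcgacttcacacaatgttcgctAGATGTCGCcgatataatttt
kni / cmpy, rank 995, chr3L:20711553-20711653: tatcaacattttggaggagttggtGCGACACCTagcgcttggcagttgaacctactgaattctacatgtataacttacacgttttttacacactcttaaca
Wnt4 / wg, rank 1202, chr2L:7281564-7281664: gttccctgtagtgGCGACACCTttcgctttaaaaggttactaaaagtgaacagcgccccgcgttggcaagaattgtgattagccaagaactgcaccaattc

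The next windows come from strong members without any of these words. They are a choice among strong members that lack the words, not the strongest of these in order. Members of ranks 24, 68, 78, 83, 90 and 94 also lacked the words and are not printed. The window of rank 102 holds several copies of the letters AGGTGGA, and that of rank 44 holds them too. How common these letters are among members was not counted.
spok / Parp1, rank 15, chr3R:3374287-3374387: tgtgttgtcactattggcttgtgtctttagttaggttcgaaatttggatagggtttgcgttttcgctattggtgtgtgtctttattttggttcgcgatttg
lncRNA:CR45641 / lncRNA:CR45643, rank 18, chr3R:16222435-16222535: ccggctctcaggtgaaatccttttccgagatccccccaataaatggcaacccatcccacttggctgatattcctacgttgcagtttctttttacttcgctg
C15 / sp3, rank 44, chr3R:21520329-21520429: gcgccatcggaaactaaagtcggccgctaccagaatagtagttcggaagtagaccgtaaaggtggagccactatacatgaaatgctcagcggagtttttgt
CG13970 / CG10651, rank 102, chr2L:20121015-20121115: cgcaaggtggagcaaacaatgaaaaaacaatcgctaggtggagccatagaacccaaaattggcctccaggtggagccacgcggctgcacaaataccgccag

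Intergenic peaks were found again in single replicates as often as optimal peaks in general. A peak counted as found in a replicate when a summit among that replicate's 4417 strongest peaks lay within 150 bp. The optimal list was itself made from these 3 replicates, so the shares compare classes of peaks and are no independent measure of reproducibility. Of the 462 intergenic peaks 296 were found in all 3 replicates, or 64.1% (exact binomial interval 59.5 to 68.5%), beside 62.4% of all optimal peaks. The share was 64.3% for promoter peaks and 56.7% for transcript peaks. A further 108 intergenic peaks were found in 2 replicates, 57 in 1 and 1 in none. Replicate 1 held 82.9% of them, replicate 2 held 83.1% and replicate 3 held 85.3%. Intergenic minus all other peaks, this share differed by 0.336 ± 1.43 percentage points (SD, n = 3 replicates; two-sided exact sign-flip permutation test, p = 0.75). Intergenic minus transcript peaks it differed by 3.13 ± 1.27 points, with the same sign in 3 of 3 replicates (exact permutation p = 0.25, the smallest that 3 replicates allow). Applied to each replicate's own 4417 strongest peaks, the placement rule gave 457, 472 and 483 intergenic summits in replicates 1, 2 and 3.

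Intergenic peaks were close to promoter peaks in strength. Their signal, the score of the authors' peak caller, ran from 100.8 to 1130 with a median of 159, beside 158 for promoter peaks and 146 for transcript peaks, and the value serves here only to rank peaks within a list. The median rank was 2118.5 for intergenic peaks, 2143 for promoter peaks and 2460.5 for transcript peaks. The top 25% of the optimal list held 114 intergenic peaks, or 24.7% of them (interval 20.8 to 28.9%), beside 25% of all peaks by construction, 26.1% for promoter peaks and 22.1% for transcript peaks. Over the replicates' own lists the share in the top 25% differed by -0.84 ± 1.97 points from that of other peaks (SD, n = 3; exact sign-flip permutation test, p = 0.5). Being found in all 3 replicates followed rank closely, which is largely built in. The ranks came from signal pooled over the same replicates, and being found required a place among each replicate's strongest peaks. Members near that cut could thus be missed through a small change in rank. When the cut was widened to the 10000 strongest peaks, 93.1% of all members were found in all 3 replicates. Members were split from strong to weak into 4 groups of nearly equal size. Every one of the 116 members of the strongest group was found in all 3, as were 96.5% in the next, 54.8% in the one after and 5.17% in the weakest. In whole embryos, stronger occupancy per cell and occupancy in more cells cannot be told apart.

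The strongest intergenic peak had its summit at 3374337 on 3R (dm6), in a gap of 106864 bp between spok, which encodes a cytochrome P450 of ecdysone synthesis, and Parp1, the poly(ADP-ribose) polymerase. Its optimal rank was 15, and it came 20, 15 and 13 in replicates 1, 2 and 3. Its summit lay 51527 bp from the nearest TSS, among the 3 largest such distances of all members. The next member, rank 18, lay at 16222485 on 3R between lncRNA:CR45641 and lncRNA:CR45643 and ranked 22, 26 and 15. Rank 24, at 22261232 on 2L, lay inside a gypsy8 element between Tif-IA, a factor of RNA polymerase I initiation, and Marf1, and ranked 21, 27 and 24. The ranks of these members stayed within the strongest 30 of every replicate.

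Rank 25 lay at 13035305 on 2R between the 3′ ends of Su(z)2, a Polycomb group gene, and CG13323, and ranked 29, 18 and 35 in the replicates. Rank 44, at 21520379 on 3R, lay 7565 bp past the homeobox gene C15 and 549 bp before sp3, and ranked 78, 33 and 41. Rank 52, at 22802940 on 2R, lay in a gap of 1340 bp between the 3′ ends of blw, a subunit of the mitochondrial ATP synthase, and CycB, the mitotic cyclin B, and ranked 48, 122 and 36. Rank 58, at 9567515 on 2L, lay 765 bp from jp, which encodes a junctophilin, and ranked 77, 39 and 79. It was the strongest member with the CTCF core. Rank 68, at 12403127 on 3R, filled a convergent gap of only 437 bp between Sol1 and Cyp9f2 and ranked 62, 82 and 76. Every one of these members kept a rank of 122 or better in each replicate.

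**Figure D1:**
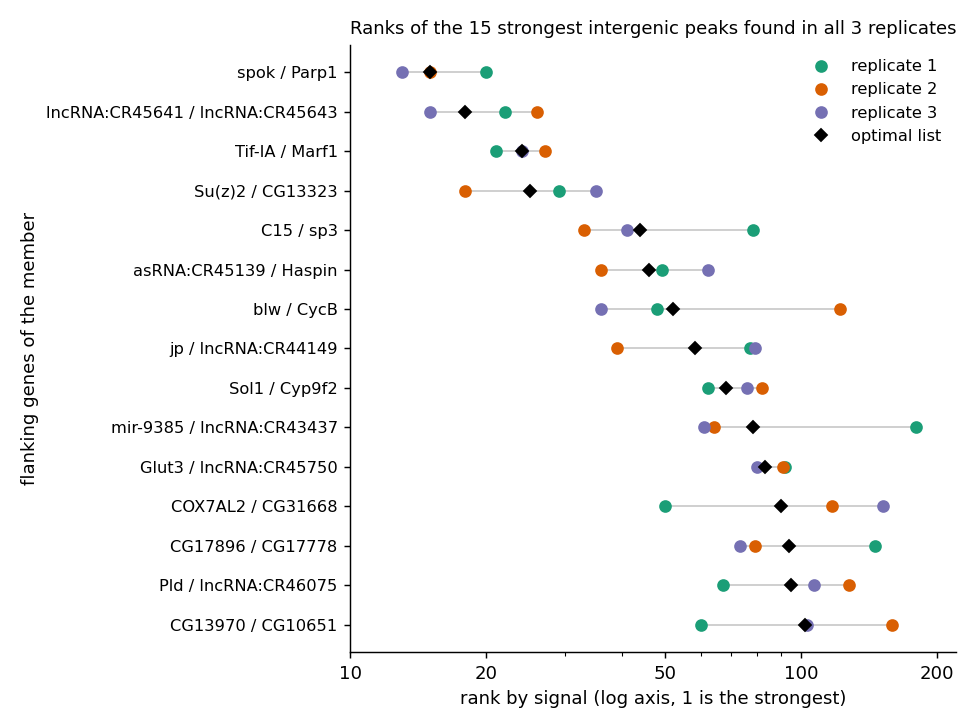
Rank by signal of the 15 strongest intergenic peaks found in all 3 replicates, on a log axis where lower ranks are stronger, with circles for replicates 1 to 3 and diamonds for the optimal list. The member between spok and Parp1 ranked 20, 15 and 13, and the weakest place of any shown, rank 180 in replicate 1 beside 64 and 61 in replicates 2 and 3, belonged to the one between mir-9385 and lncRNA:CR43437 on chromosome 4.

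Intergenic peaks lay close to genes and were dense in short gaps. Their median distance was 2370.5 bp to the nearest TSS and 1373 bp to the nearest gene edge, and the gap between the flanking genes had a median of 9213 bp. The nearest edge was a 5′ end for 224 members and a 3′ end for 238. Sequence in which a summit would have counted as intergenic, called eligible below, came to 36.5 Mb, with 12.7 members per Mb. Gaps under 2 kb held 73 members, or 49.9 per Mb of eligible sequence (51.7 ± 2.85 in the replicates' lists, SD, n = 3). Gaps over 50 kb held 19 members, or 2.32 per Mb (2.60 ± 0.254). Each step to longer gaps lowered the density in the optimal list, through 26.6, 16.0, 13.5 and 10.1 per Mb. By distance to the nearest gene, eligible sequence under 500 bp held 39.2 members per Mb and sequence at 10000 bp or more held 3.49. The median signal changed little along the way, being 169 in gaps under 2 kb, 149 in gaps of 20 to 50 kb and 172 in gaps over 50 kb. How well reads map in long gaps was not examined.

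**Figure D2:**
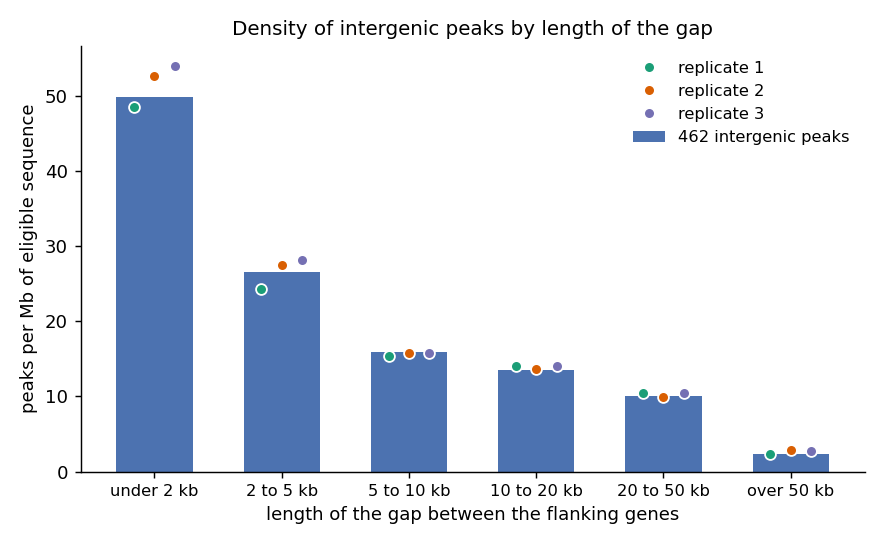
Intergenic peaks per Mb of eligible sequence in gaps of 6 length classes, with bars for the 462 peaks of the optimal list and points for the intergenic summits among each replicate's strongest peaks. The density falls at each step, and gaps under 2 kb held 49.9 per Mb while gaps over 50 kb held 2.32.

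Members were more often between divergent genes, and less often between convergent genes, than eligible sequence was. Divergent genes flanked 119 members, or 25.8% (interval 21.8 to 30.0%), and 20.3% of eligible sequence. Convergent genes flanked 100 members, or 21.6% (18 to 25.7%), and 25.5% of eligible sequence, a value inside that interval. Tandem genes flanked 241 members, or 52.2% (47.5 to 56.8%), and 50.5% of eligible sequence, and 2 members lay beyond the last gene of an arm. The replicates' own lists gave 23.9, 26.1 and 25.1% divergent, all above the eligible share, and 23.6, 22.7 and 21.5% convergent, all below it. Per Mb, divergent gaps held 16.1 members, tandem gaps 13.1 and convergent gaps 10.8.

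The difference by orientation depended on which distance was limited. With members required to lie more than 1000 bp from every TSS, 358 remained, and divergent, tandem and convergent gaps held 11.6, 11.1 and 10.5 of them per Mb. With the limit at 250 bp the same gaps held 21.7, 16.6 and 10.7 of 598 members per Mb. The density in convergent gaps thus stayed between 10.5 and 10.8 per Mb at all 3 limits. Split by distance to the nearest gene, with the TSS limit kept at 500 bp, the order was the same on both sides of 1000 bp. The 198 members under 1000 bp from a gene gave 46.7, 33.4 and 29.3 per Mb in divergent, tandem and convergent gaps, and the 264 members at 1000 bp or more gave 11.6, 9.04 and 6.49. Members between convergent genes were found in all 3 replicates in 70.0% of cases, those between tandem genes in 63.9% and those between divergent genes in 60.5%. No test was made of that order.

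**Figure D3:**
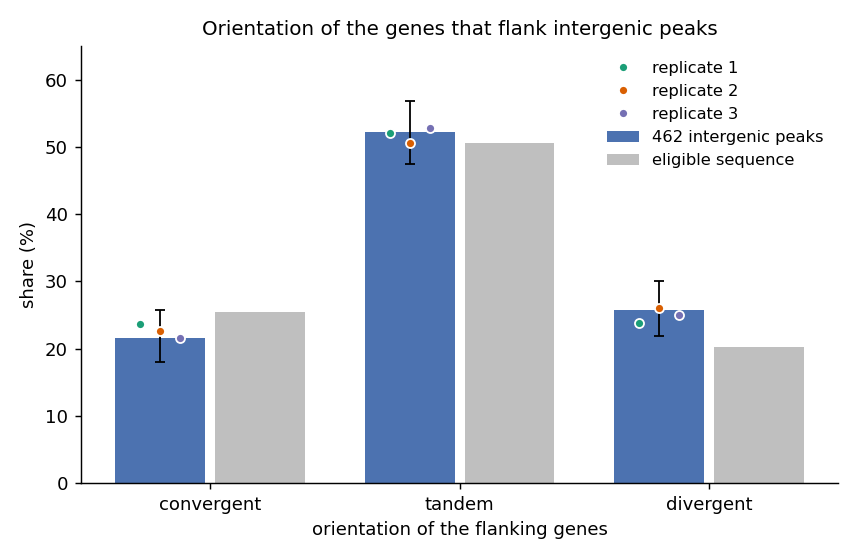
Share of intergenic peaks (left bars, with exact binomial 95% intervals over peaks, and points for the replicates' own lists) and of eligible sequence (right bars) between convergent, tandem and divergent genes. Divergent genes flanked 25.8% of members and 20.3% of eligible sequence, and convergent genes 21.6% and 25.5%.

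Chromosome 4, the small arm rich in repeats, held 15 members on 0.245 Mb of eligible sequence, or 61.2 per Mb, and 35.7% of its 42 optimal peaks were intergenic. The replicates' lists gave 13, 14 and 14 intergenic summits there (55.7 ± 2.35 per Mb, SD, n = 3). The 5 other arms ran from 9.23 members per Mb on X, with 49 members, to 17.0 on 2L, with 114. Arm 2R held 70 members at 9.40 per Mb, 3L held 120 at 13.2 and 3R held 94 at 12.3. The strongest chromosome 4 member, rank 78 at 424803, lay 1264 bp from lncRNA:CR43437, and its ranks of 180, 64 and 61 put replicate 1 apart from replicates 2 and 3. Other chromosome 4 members flanked the eye-specification genes ey and toy, the activin-type ligand gene myo, and pan, the TCF factor of Wnt signalling.

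Most occupied gaps held a single member. The 462 peaks fell into 383 gaps between neighbouring genes, 324 with 1 member, 46 with 2 and 13 with 3 or more, and those 13 gaps held 46 members (9.96%). The gap between tRNA:Ile-TAT-1-2 and CG13898 on 3L held 5 members over 31352 bp, 3 of them found in all replicates. The gap between lncRNA:CR44363 and CG7560 on 3L held 5 within 6975 bp. The gap between CG13970 and CG10651 on 2L held 4, all found in all 3 replicates, with ranks from 102 to 1187. The gap between Hacd1 and Rh5, a rhodopsin gene, held 4 within 4423 bp, 2 of them found in all replicates. Of all members, 17 had another optimal summit within 400 bp, which was intergenic for 12 and at a promoter for 5.

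Genes of embryonic patterning often flanked intergenic peaks. Of 101 genes of the Hox, segmentation, dorsoventral and mesoderm, neural and eye, and other homeobox lists that border eligible sequence, 31 flanked a member, or 30.7%, beside 7.74% of all such genes (721 of 9317). The gaps of those genes held 39 members, at 25.6 per Mb in the optimal list and 25.6 ± 1.14 per Mb in the replicates' lists (SD, n = 3), beside 12.9 ± 0.358 per Mb for all eligible sequence. Of the 39 members 27 were found in all 3 replicates (69.2%), and 6 lay in the top 25% by signal (15.4%, beside 24.7% of all intergenic peaks). The lists were chosen with earlier results of these data known, and these shares are given without a test.

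Segmentation genes had 8 of 25 next to a member (ems, en, kni, oc, odd, slp1, slp2 and wg). The member between the forkhead genes slp1 and slp2, at 3832519 on 2L, ranked 172 overall and 114, 389 and 178 in the replicates. The member 16225 bp from the gap gene kni, at 20711603 on 3L, ranked 1157, 770 and 1758. Between Wnt4 and wg, which encode Wnt ligands, the member at 7281614 on 2L ranked 1170, 900 and 1933, and a second in the same gap was among the 462 with an optimal rank of 4170. The kni member and the stronger Wnt4 member are those printed above with AGGTGTCGC.

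Hox genes had 2 of 8 next to a member. The one near Ubx, at 16656297 on 3R in a gap of 960 bp, lay 326 bp from the 3′ end of Ubx. Its nearest TSS was that of modSP, at 635 bp, and it ranked 892, 1486 and 1492. The strongest next to Dfd, at 6780264 on 3R, ranked 6839 in replicate 1 against 2014 and 2327 in the others, so it was not found in replicate 1. In the dorsoventral and mesoderm list 5 of 15 genes flanked a member (bap, sog, srp, tin and tup). The member between tin and bap, neighbouring homeobox genes of heart and gut mesoderm, ranked 1820, 1568 and 1910 at 21386305 on 3R.

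Neural and eye factors had 6 of 25 next to a member (D, SoxN, dac, ey, eya and toy). The strongest member next to toy, at 980028 on chromosome 4, lay 9697 bp from toy and 1539 bp from fuss, its nearest gene. It ranked 287, 219 and 172, and the stronger of those next to SoxN ranked 619, 1442 and 722. Other homeobox and appendage genes had 10 of 28, among them hth and the Iroquois complex genes ara, caup and mirr. In the signalling list 7 of 28 genes flanked a member (Ser, Wnt4, fz2, ptc, upd1, upd2 and vn). The member 24145 bp from vn, which encodes a neuregulin-like ligand of the EGF receptor, ranked 346, 323 and 631 at 5869809 on 3L.

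Polycomb and Trithorax group genes had 4 of 14 next to a member, and these were 2 pairs of neighbouring paralogues, Psc and Su(z)2, and ph-d and ph-p. The member 7739 bp from Psc, at 12958258 on 2R, ranked 200, 379 and 388. Of cytosolic ribosomal protein genes 8 of 45 flanked a member (17.8%), and the strongest lay between RpS3A and pan on chromosome 4 and ranked 853, 350 and 1208. Transfer RNA genes had 12 of 84 (14.3%) and genes of the annotation's ncRNA class 170 of 1420 (12%). That class holds long non-coding RNAs together with antisense RNA and microRNA entries. These shares take no account of how much eligible sequence the genes border. Per Mb of it, ribosomal protein genes had 18.3 members, transfer RNA genes 28.3 and genes of the ncRNA class 13.5, beside 12.7 for all genes. Genes of other kinds flanked members at shares close to or below that of all genes. Axon guidance and adhesion genes had 6 of 72 (8.33%), ion channels and transmitter receptors 3 of 58 (5.17%), chemosensory genes 5 of 144 (3.47%), cuticle protein genes 3 of 109 (2.75%) and pseudogenes 9 of 162 (5.56%). In that order they had 3.13, 5.38, 4.93, 7.61 and 3.72 members per Mb, all below the value of all genes. No gene of 8 insulator proteins and none of 6 small nucleolar RNAs flanked a member, while 1 of 7 small nuclear RNA genes did.

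The CTCF core AGNNGGCGC was, among 17 fixed words, the one that most separated intergenic summits from the sequence beside them. It occurred on either strand in 34 of the 462 windows of 101 bp, or 7.36% (exact binomial interval 5.15 to 10.1%). The same windows moved by 500 bp held it in 1 case (0.216%) towards higher coordinates and in 1 case towards lower ones. Tiles of the same length over all eligible sequence held it in 0.614%. In the replicates' own lists 6.13, 6.78 and 6.42% of intergenic windows held it, and summit minus moved window was 5.87 ± 0.448 points (SD, n = 3; exact sign-flip permutation test, p = 0.25, the smallest possible, and 0.386 after Benjamini-Hochberg adjustment over 17 words). The difference was positive in 3 of 3 replicates.

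The core was more frequent at intergenic than at other summits. It lay in 7.36% of intergenic windows, 3.46% of transcript windows and 2.21% of promoter windows, and windows moved by 500 bp towards higher coordinates held it in 0.216, 0.911 and 1.47% of these classes. In the replicates, intergenic minus transcript windows differed by 2.87 ± 0.276 points and intergenic minus promoter windows by 4.25 ± 0.20 points (SD, n = 3; exact permutation p = 0.25 each). In bins of 50 bp, 22 members had a match just below the summit coordinate and 19 just above it, and 15 had one from 100 to 50 bp below. No other bin within 1000 bp had a match in more than 5 members. The fullest bin of transcript peaks held a match in 2.28% of them.

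**Figure D4:**
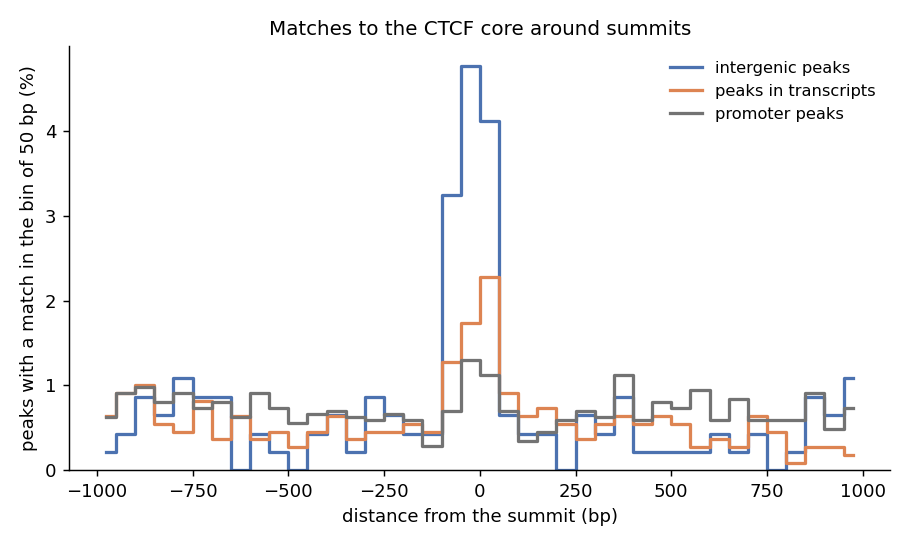
Share of peaks with a match to the CTCF core on either strand in each bin of 50 bp around the summit, for intergenic, transcript and promoter peaks. The intergenic line reaches 4.76% of peaks next to the summit and the transcript line 2.28%, and the promoter line stays at or below 1.30%.

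Most matches were of 3 kinds. AGATGGCGC was found in 15 members and AGGTGGCGC in 14, while 0.0679% and 0.0454% of tiles held them, and AGAGGGCGC was found in 5. Each of the 4 other variants was found in 1 member. The 34 members with the core had a median rank of 1792 and a median gap of 3874.5 bp, against 2137.5 and 9806.5 bp for the 428 members without it. They lay between tandem genes in 20 cases, divergent genes in 9 and convergent genes in 5, and 24 of them were found in all 3 replicates.

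Few members with the core lay next to genes of the developmental lists. The core lay in 1 of the 39 members beside genes of the 5 lists, the one next to eya, and in 34 of all 462 (7.36%). These counts are small, and the difference was not tested. The members described here were chosen after their values were seen, for their named neighbours or their several matches. The member between Sox21a and Sox21b, which encode HMG-box factors, had its summit at 14111625 on 3L and ranked 635, 829 and 713 in the replicates. The member between CadN and CadN2, the N-cadherin genes, at 17784835 on 2L, ranked 1681, 1061 and 2502 and held matches of different kinds at -32 and 41 bp from the summit. The member near cv-c, at 14391419 on 3R, held 3 matches at -29, -1 and 33 bp and ranked 254, 186 and 163. The member between wgn, a tumour necrosis factor receptor gene, and Rip11 lay in a gap of 733 bp and ranked 1720, 2002 and 2475. Weaker members with the core lay next to eya, an eye-specification gene (ranks 1809, 2206 and 5986), upd2, a ligand of the JAK/STAT pathway (4833, 5402 and 2549), and stg, the mitotic Cdc25 phosphatase (2738, 4134 and 8128). None of these weaker 3 was found in all replicates.

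The CTCF core was concentrated in the optimal list. Within it, the 4 groups of members from strong to weak held the core in 9.48, 7.83, 6.96 and 5.17% of windows, and 29.4% of the members with the core lay in the top 25% by signal, against 24.3% of those without it. Among the pooled relaxed list of 30000 entries, intergenic windows held the core in 7.55% of cases at ranks 1 to 1000 and in 7.30% at ranks 1001 to 4417. The share was 1.56% at ranks 4418 to 10000 and 0.658% at ranks 25001 to 30000, near the 0.614% of tiles. Intergenic summits themselves took 10.6% of the pooled list at ranks 1 to 1000, 15% at ranks 4418 to 10000 and 21.3% at ranks 25001 to 30000. Each replicate's own list gave the same order of the core's share between ranks 1 to 4417 and ranks 4418 to 10000.

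**Figure D5:**
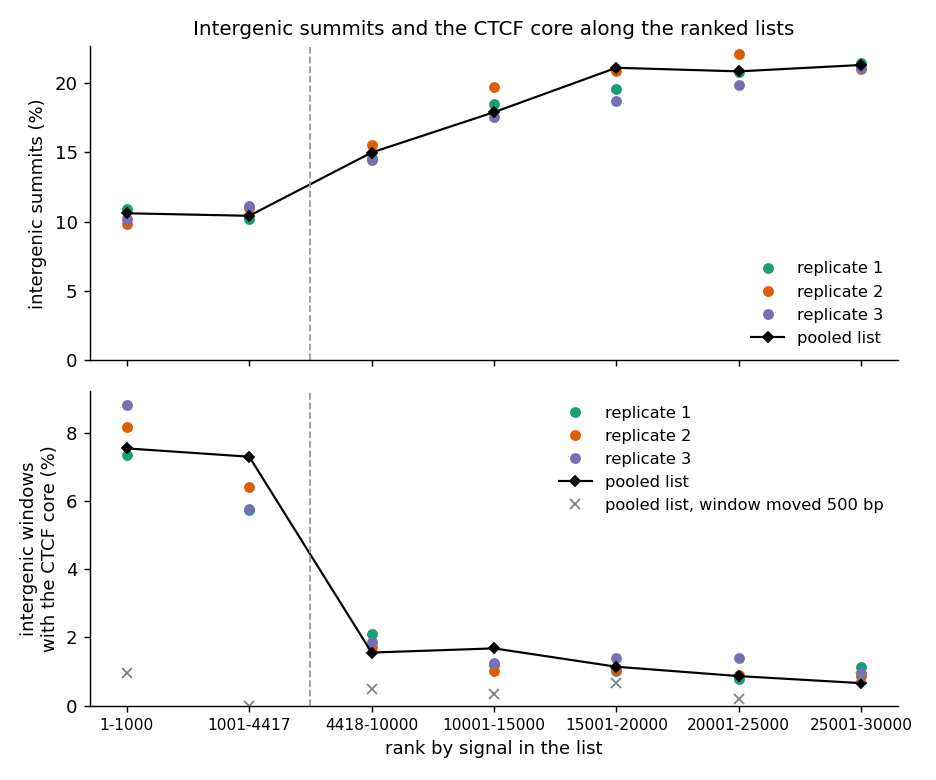
Share of summits that were intergenic (upper panel) and share of those intergenic windows with the CTCF core (lower panel) along lists ranked by signal, with diamonds for the pooled list, circles for the replicates and crosses for the pooled list's window moved 500 bp towards higher coordinates. The dashed line marks the end of the optimal list at rank 4417, where the core's share in the pooled list went below 2% and the intergenic share was rising from 10.4% to 15%.

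The related words AGGTGTCGC and AGATGTCGC were chosen after the printed windows were seen, so their counts are a description. AGGTGTCGC lay in 8 members (1.73%) and in 0.0371% of tiles, and AGATGTCGC in 5 members (1.08%) and in 0.0343% of tiles. The moved windows held 1 case between them. Either word occurred in 0.315% of promoter windows and 0.638% of transcript windows. Of the 13 members with either word 3 also held the core, which leaves 10 without it. The strongest of the 10 lay between Hr51, a nuclear receptor gene, and unc-5, a netrin receptor gene (optimal rank 237, and 185, 522 and 195 in the replicates). The next lay between osp and CG15282 (optimal rank 299, and 440, 428 and 197 in the replicates). Together 44 members (9.52%) held at least 1 of the 3 words, and 32 of those were found in all 3 replicates. The replicates' own lists held at least 1 of the 3 in 8.28% ± 0.546 of intergenic windows (SD, n = 3).

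Among the words of architectural and core promoter factors, 3 were less frequent at intergenic than at promoter summits. TATCGATA, the DRE, lay in 1.30% of intergenic windows and 7.04% of promoter windows. GGTCACAC, the core of Motif 1, lay in 0.433% and 6.51%, and CGATA, the core of the BEAF-32 site, which is part of TATCGATA, in 14.3% and 31.8%. Around intergenic summits CGATA was about as frequent in the moved windows, at 13.4% and 13.2%. TGCATACT, part of the Su(Hw) site, lay in 7 members (1.52%) and in 1 window on each side, while tiles held it in 0.452% and promoter windows in 0.385%. GAGAGAGA lay in no member, which allows up to 0.795% by the exact binomial interval, against 10 and 5 moved windows. Tiles held it in 0.456%, inside that interval, and the replicates' own lists held it in 0.214% of intergenic windows on average. GAGAG, which GAGAGAGA contains, lay in 10.6% of members, against 12.6% and 10.2% of moved windows and 9.98% of promoter windows. GCCAT, the Pho core, which overlaps matches such as GCGCCATCT of the CTCF core, lay in 20.8% of members, 19.6% of tiles and 18.6% of promoter windows.

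The other fixed words lay on both sides of the level of tiles. CAGGTAG, the site of the pioneer factor Zelda, lay in 5 members (1.08%) and 0.427% of tiles. The GATA factor site GATAAG lay in 5.84% of member windows and 4.00% of tiles. TAATTA, a homeodomain site, lay in 4.55% of member windows and 7.41% of tiles. The TATA word TATAAA lay in 14.7% of member windows, 12.6% of tiles and 11.9% of promoter windows. CACGTG, an E-box, lay in 1.08% of both. The AP-1 site TGANTCA lay in 1.52% of member windows and 1.78% of tiles. Of the simple repeats, CACACACA lay in 0.866% of member windows and 2.02% of tiles. ATATATAT lay in 1.95% of member windows and 1.60% of tiles, and AAAAAAAA in 3.46% and 5.47%. In the exact sign-flip permutation tests over the 3 replicates the adjusted p was 0.386 or more for all 17 words. Of all 6-base words in at least 5% of member windows, CACCTA had the highest ratio to the moved windows, with 38 members against 10 and 11 moved windows. The word CTTGCA came next in that order, with 49 members against 14 and 16 moved windows. AGGTGG, part of AGGTGGCGC, was number 8 in that order, with 32 against 11 and 15, while AGGTGGCGC itself lay in 14 members. These words were ranked on the values given, without a test. Member windows averaged 38.1% G and C, against 41.0% and 40.6% in the moved windows and 40.5% in tiles.

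Few members lay in transposable elements. Of the 462 summits 7 fell inside an annotated element (1.52%), while elements covered 10.8% of eligible sequence. The strongest was the gypsy8 member near Tif-IA. The next lay inside an INE-1 element 733 bp from ed, which encodes an adhesion protein of the immunoglobulin family (rank 1151, and 914, 1181 and 1657 in the replicates). The third lay inside a 1360 element near Sox102F on chromosome 4 (rank 2005, and 1449, 2758 and 2226). The member farthest from any TSS lay beyond Cadps near the end of chromosome 4, at 87165 bp inside a HeT-A element. The member between spok and Parp1 came next, at 51527 bp, and was in no annotated element. Another member beyond Cadps followed at 40527 bp, inside a TART-A element. The HeT-A and TART-A members were weak, at ranks 3597 and 4006, and were not found in all 3 replicates. Whether reads could be placed in single copies of such elements was not examined.

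At the limit of 500 bp the values were alike on both sides. The member nearest to the limit lay 501 bp from the TSS of Sqor on 3L with a signal of 117.6, and the peak just inside the limit, not a member, lay 499 bp from the TSS of l(3)neo38 on 3R with a signal of 151.6. The 42 members at 501 to 600 bp had a median signal of 155.6, and the 31 non-member peaks at 401 to 500 bp had 147.7. The weakest members had signals of 100.9 (between out and nAChRalpha7), 100.8 (next to SrpRbeta) and 100.8 (between lncRNA:CR45937 and lncRNA:CR45936), and none of the 3 was found in all replicates. All 462 members also lay outside transcripts and beyond 500 bp from TSSs in the RefSeq annotation of the same assembly.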

How the data were processed

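Peak lists on dm6 from 3 biological replicates of 1 group were used. According to the file lists the authors deposited, relaxed lists were made from the alignments of each replicate and from the pooled alignments, each with a control file, and the optimal list is the one thresholded by the irreproducible discovery rate (IDR). Which aligner, caller and threshold were used is not given in the sources used here. Signal, the deposited value of each peak, is a score of the authors' caller and was used only to rank peaks within a list. The dm3 lists were not used. Read counts were not used, so the depth is unknown, and intervals cover counting over peaks only.

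Summits were placed against Ensembl release 115 (BDGP6.54), with transposable elements left out, using Python 3.11.15, numpy 2.4.6, pandas 2.3.3 and scipy 1.17.1, with figures from matplotlib 3.10.9. The placement and word functions were tested on simulated data. Sequences were read from the RefSeq genome of the same assembly. Flanking genes are the nearest gene ends on either side. Differences over the 3 replicates were tested with two-sided exact sign-flip permutation tests. The named members are the 15 strongest found in all 3 replicates, the 3 strongest of each orientation, those in gaps with 3 or more, the 2 strongest per gene list and per word in over 3% of windows, and those at the extremes of distance, strength and the limit. Other named members were chosen after their values were seen. The members and lists were chosen with earlier results of these data known. Alternatives moved the TSS limit, the matching, the window, the flanking genes and the replicates used.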

Additional observations from a re-analysis of the deposited data

How the results depend on the processing

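No paired analysis was possible because the study has 1 group. The number of intergenic peaks stayed within 1.5 times of 462 under every alternative, from 358 with a TSS limit of 1000 bp to 598 with a limit of 250 bp, and was 445 for members with no other optimal summit within 400 bp, an alternative added after seeing the data. The share found in all 3 replicates was 51.9% with matching within 50 bp, 33.8% when the number of strongest peaks was cut to 2208 and 93.1% among 10000 strongest peaks, and the share found in both remaining replicates ran from 71.0 to 72.5% when 1 was left out. The share between convergent genes was 16.7% at 250 bp, 26.3% at 1000 bp, 19.3% with protein-coding flanks and 23.6% for members found in all 3 replicates. It was 22.2 to 24.1% without 1 replicate. The tandem share was 53.7% at 250 bp and 50.6% with protein-coding flanks, and 51.8 to 53.2% without 1 replicate. The divergent share was 29.3% at 250 bp, 20.9% at 1000 bp, 29.7% with protein-coding flanks and 24.3% for members found in all 3, and 24.1 to 24.8% without 1 replicate. At 1000 bp convergent genes thus flanked more members than divergent genes did. Of intergenic peaks 12.6% lay in the top 10% by signal, and 24.2 to 24.7% lay in the top 25% without 1 replicate. The summit-minus-moved difference of the CTCF core, 7.14 points, was 6.69 at 250 bp, 5.59 at 1000 bp, 9.31 with 100 bp on each side and 7.77 for members found in all 3, and 7.16 to 7.93 without 1 replicate. Genes of the 5 developmental lists that flank a member numbered 25 to 35 under all alternatives run. Of 144 values of the other 16 words 79 moved by less than 1 SD over the replicates. The causes of these moves were not tested. Without read counts, depth limits cannot be given.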
